A study of Homo sapiens with 4 samples.

Results

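The clustered protocadherin genes of human chromosome 5 were followed as 750 consecutive tiles of 1 kb, chr5:140150001-140900000 on hg19. Of these, 726 held at least 1 read in any library, among 2598309 such tiles of the genome. Membership was set by coordinates and used no measured value of a tile. The alpha part, chr5:140150001-140400000, has 250 tiles, the beta part, chr5:140420001-140630000, has 210 tiles, and the gamma part, chr5:140700001-140900000, has 200 tiles. Intervals of 20 kb and 70 kb lie between these parts. The 500 kb on each side of the cluster, 1000 tiles in all, served as flanks.

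ChIP-seq, the sequencing of immunoprecipitated chromatin, was done with antibodies against DPF2 and against crotonylated lysine 14 of histone H3 (H3K14cr). The cells were wild-type K562, a human line established from a chronic myeloid leukaemia and with erythroid features, and the labels give no treatment. The DPF2 group has 2 libraries and the H3K14cr group has 2. All came from the same cell line, and separate cultures are not stated in the labels for either antibody. No control library was analysed here, so levels are those of the immunoprecipitated DNA, with no background subtracted.

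Clustered protocadherins are cell surface proteins of the cadherin family. They are best known from neurons, where each cell expresses its own combination of alpha, beta and gamma isoforms and the combination serves as a surface identity by which branches of the same cell recognise each other. Most variable exons have a promoter of their own, and the alpha and gamma exons are spliced to constant exons shared within their part, whereas beta genes have a single coding exon. Promoter choice in neurons involves CTCF, cohesin, DNA methylation and distal enhancers. DPF2 belongs to the BAF complexes, which remodel chromatin, and reads acylated histone H3 at lysine 14 through its paired PHD fingers. H3K14cr is a histone mark known from active promoters.

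The RefSeq gene table of GRCh38.p14 lists 53 protein-coding genes of the cluster, with 15 alpha, 16 beta and 22 gamma genes, and 6 pseudogenes. In its order, SLC25A2, a mitochondrial carrier of basic amino acids, and TAF7, a subunit of the general transcription factor TFIID, lie between the beta and gamma genes. ZMAT2 is the last gene before the cluster, and DIAPH1, a formin that assembles actin filaments, and HDAC3, a histone deacetylase, are the first genes after it. The hg19 tiles were not assigned to single genes, since an hg19 annotation was not used here. Where reads map to several of the similar variable exons, how they were counted is not given in the sources used here.

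Promoter windows from RefSeq (GRCh38.p14; 250 bases before to 50 after the gene start) were matched for 47 of the 53 genes. The motif CGCT, the core of the conserved element of protocadherin promoters, was found on either strand in 46 of the 47 windows, all but that of PCDHA9, against 70.0% of 35116 promoter windows of the same length. The short motif is common in any promoter, but the letters around it differed by family. TGTCGCT was found in 10 of 13 alpha, 1 of 14 beta and 3 of 20 gamma windows, and in 1.76% of all windows. The windows of PCDHAC1 and PCDHAC2 lacked it as well as that of PCDHA9. TGGCGCT was found in 13 of 14 beta windows, all but that of PCDHB1, in 3 gamma windows and 0 alpha windows, and in 4.08% of all windows. In the 20 gamma windows, CGCCGCT was found in 10 and CGTCGCT in 3, against 9.45% and 2.24% of all windows, and both were found in 0 alpha and 0 beta windows. The motif AGNNGGCGC, the tail of the CTCF motif, was found in 3 of the 47 windows and in 10.4% of all windows. The 4 longer forms of CGCT were chosen after the sequences were read and overlap the CGCT count, and a match is a description of the letters only. The following stretches of 54 bases, 5′ to 3′ on the plus strand, show the last CGCT before the gene start in genes of each family, in capitals. The stretch of PCDHGC4 holds none of the 4 longer forms. Whether its CGCT belongs to the conserved element was not tested.
PCDHA1, chr5:140786076-140786129: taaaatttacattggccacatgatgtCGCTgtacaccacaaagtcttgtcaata
PCDHA6, chr5:140827887-140827940: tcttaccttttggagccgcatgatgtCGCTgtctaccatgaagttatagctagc
PCDHA12, chr5:140875234-140875287: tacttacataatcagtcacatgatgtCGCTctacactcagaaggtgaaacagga
PCDHB3, chr5:141100383-141100436: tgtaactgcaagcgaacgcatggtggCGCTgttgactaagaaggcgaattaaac
PCDHB10, chr5:141192289-141192342: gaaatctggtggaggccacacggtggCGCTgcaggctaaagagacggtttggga
PCDHB15, chr5:141245304-141245357: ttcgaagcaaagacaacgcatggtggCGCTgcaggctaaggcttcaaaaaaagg
PCDHGA1, chr5:141330393-141330446: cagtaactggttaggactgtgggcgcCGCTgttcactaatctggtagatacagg
PCDHGA6, chr5:141373825-141373878: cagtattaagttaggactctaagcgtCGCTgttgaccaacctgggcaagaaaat
PCDHGA10, chr5:141412921-141412974: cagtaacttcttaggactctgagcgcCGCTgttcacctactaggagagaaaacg
PCDHGC4, chr5:141484942-141484995: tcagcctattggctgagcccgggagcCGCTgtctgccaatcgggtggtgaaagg

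The alpha stretches share an atgatgtCGCT run and the beta stretches a ggtggCGCT run, while the gamma stretches differ more from each other before CGCT. In the stretches above, CGCT began 38 to 95 bases before the gene start. Base composition set the C-type genes, PCDHAC1, PCDHAC2, PCDHGC4 and the other gamma C-type gene with a window, apart from the rest. The GC content of the promoter windows had a median of 36.0% in 11 alpha genes, 40.8% in 14 beta genes and 41.0% in 18 gamma genes, against 58.7% over all windows. The alpha C-type windows had 63.0% and 66.0%, and the gamma C-type windows had 59.0% and 60.7%.

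Sequencing depth was 7787444 and 13317496 reads for DPF2, against 10880366 and 17369133 for H3K14cr. Of these, 1784 and 3133 DPF2 reads fell in the cluster, against 2217 and 3714 H3K14cr reads, a median of 2 to 4 per tile. Levels are given as CPM, reads scaled to a library of 1000000 reads. As a check of the cell line, the highest 1 Mb window in all 4 libraries was chr22:19000001-20000000, at 8.81 to 10.6 times the median window. The windows chr22:22000001-23000000, chr22:23000001-24000000 and chr9:133000001-134000000 were at 6.88 to 8.97 times. Among the highest was also chr16:85000001-86000000, at 4.92 to 6.39 times. Amplification of the BCR and ABL1 regions is a known feature of K562, but the windows were not assigned to genes here. Over the 1 kb tiles of the cluster, the counts of the DPF2 libraries gave a chi-square per degree of freedom of 1.02, and those of the H3K14cr libraries 0.974, which is the size of sampling noise. Libraries of different antibodies gave 0.958 to 1.06 on the same tiles, so at this depth the measure cannot tell whether libraries share a sample. The libraries of an antibody, for which separate cultures are not stated, were counted as 1 sample, so that n = 1 for each antibody. All intervals below are exact 95% binomial intervals that cover counting error only. The values of both libraries are given to show the technical spread.

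The cluster as a whole was a broad trough of both antibodies between higher flanks, deepest over alpha and beta. The level over the whole cluster was 0.305 and 0.314 CPM per kb in the DPF2 libraries, against 0.681 and 0.706 CPM per kb in the flanks. For H3K14cr it was 0.272 and 0.285 CPM per kb in the cluster, against 0.730 and 0.728 CPM per kb in the flanks. The ranges of cluster and flanks did not overlap for either antibody. With the libraries pooled, the cluster had 0.446 times the level of its flanks for DPF2 (0.432 to 0.461) and 0.384 times for H3K14cr (0.373 to 0.395). The flanks themselves were above the mean of chromosome 5, which was 0.400 CPM per kb in both DPF2 libraries and 0.386 CPM per kb in both H3K14cr libraries. This mean covers the 165425 tiles of the chromosome with at least 1 read, while cluster, parts and flanks count all their tiles. With 24 of the 750 tiles of the cluster empty, its ratio to this mean is slightly understated. Against that mean the cluster was less low, at 0.777 times for DPF2 (0.755 to 0.799) and 0.726 times for H3K14cr (0.707 to 0.744). Gamma alone was above the chromosome 5 mean in all 4 libraries, at 1.16 times for DPF2 (1.11 to 1.21) and 1.14 times for H3K14cr (1.09 to 1.18). This rested on the edges of gamma, since its inner stretch, described below, lay under that mean in all 4 libraries.

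**Figure D1:**
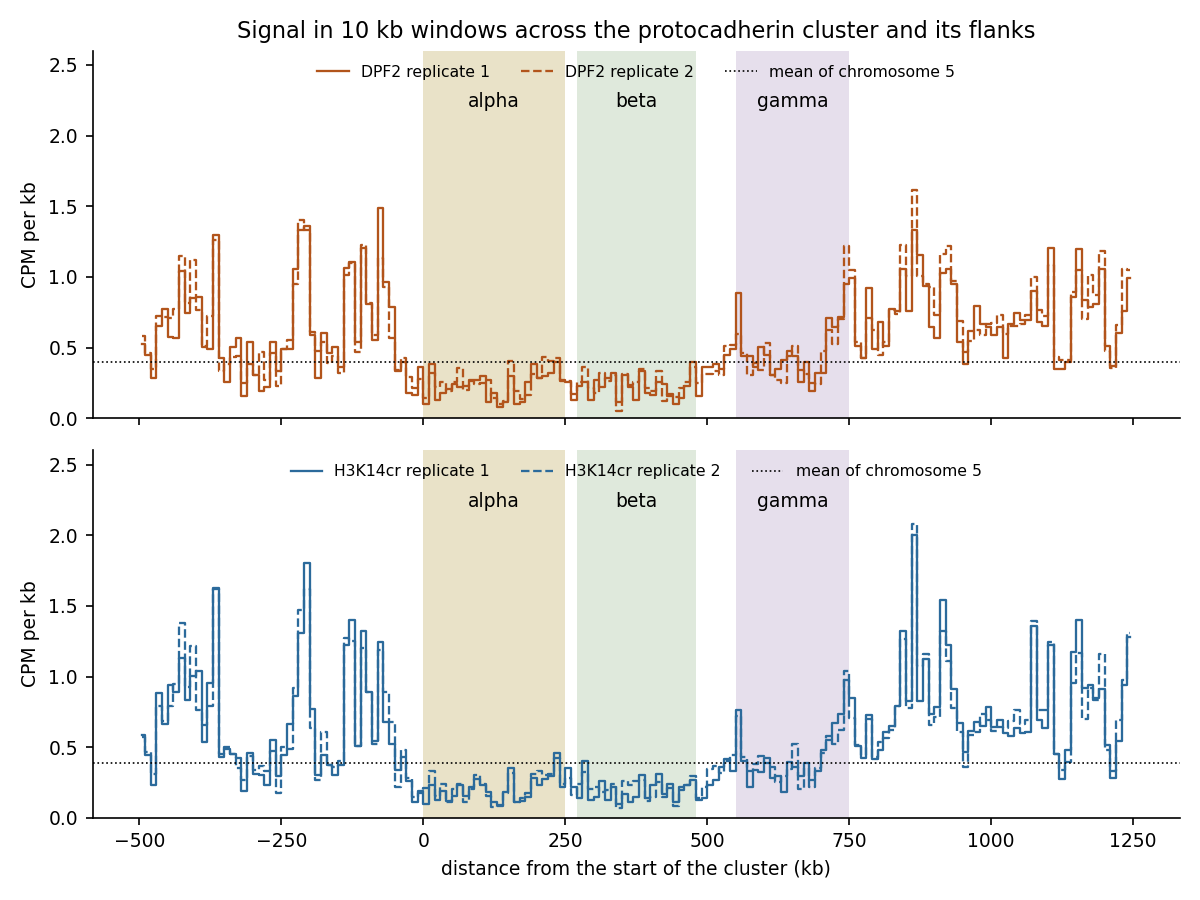
CPM per kb in 10 kb windows (y axis) by distance from the start of the cluster in kb (x axis), for the DPF2 libraries (upper panel) and the H3K14cr libraries (lower panel), with the alpha, beta and gamma parts shaded and the mean of chromosome 5 dotted. Both panels show low windows over alpha and beta, down to a mean of 0.0846 CPM per kb, and a rise at both edges of gamma.

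Along the cluster, the profile in 10 kb windows was low without interruption over long stretches. Of the 75 windows of the cluster, 61 and 59 lay below the chromosome 5 mean in the DPF2 libraries and 62 in each of the H3K14cr libraries. Of the 100 windows of the flanks, 19 and 15 did so with DPF2 and 16 and 17 with H3K14cr. The longest run of windows below that mean in all 4 libraries spanned 240 kb, chr5:140440001-140680000, from beta into the interval before gamma. The next, of 180 kb, was chr5:140120001-140300000 and began in the lower flank, so the trough did not start at the boundary of the cluster. The lowest window of the cluster and its flanks, chr5:140490001-140500000 in beta, had 0.116 and 0.0526 CPM per kb for DPF2 and 0.101 and 0.0691 CPM per kb for H3K14cr. It was followed by chr5:140280001-140290000 in alpha, with 0.0771 and 0.0976 CPM per kb for DPF2 and 0.0919 and 0.0864 CPM per kb for H3K14cr. Their values overlap between libraries, so the order of these windows is not resolved at this depth.

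Single tiles showed the same picture. Of the cluster, 75 of the 750 tiles, 10.0%, lay above the chromosome 5 mean in all 4 libraries, against 450 of the 1000 tiles of the flanks, 45.0%. Below that mean in all 4 libraries lay 404 tiles of the cluster, 53.9%, against 135 tiles of the flanks, 13.5%. Tiles with no read in any library numbered 24 in the cluster, 3.2%, against 9 in the flanks, 0.90%. Of the 24 empty tiles, 10 were in alpha, 12 in beta and 2 in gamma. The longest empty stretch, chr5:140491001-140494000 in beta, covered 3 tiles. A count of 0 over all 4 libraries allows a level of up to 0.0608 CPM in a tile over the pooled reads of both antibodies, and more for either antibody alone.

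The depth of the trough against its own surroundings was unusual for a window of this length, while its level was not. Among windows of 750 kb on a fixed grid, 1201 of 2909 had a lower DPF2 level than the cluster, 41.3%, and 1102 had a lower H3K14cr level, 37.9%. Set over its own 500 kb flanks, the cluster had a lower DPF2 ratio than all but 3 of 2703 windows and a lower H3K14cr ratio than all but 1. These figures take the mean of the ratios of the libraries, 0.447 for DPF2 and 0.382 for H3K14cr, against window medians of 0.999 and 0.994. The windows with a lower DPF2 ratio were chr9:134250001-135000000, at 0.377, chr19:12000001-12750000, at 0.432, and chr19:54750001-55500000, at 0.446. The window with a lower H3K14cr ratio was chr11:56250001-57000000, at 0.368. This is a rank among windows and no test, and grid windows that overlap the cluster in part are among them. The limits of the cluster were set to its locus, whereas grid windows can cut across other low regions, which favours a low rank for the cluster.

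**Figure D2:**
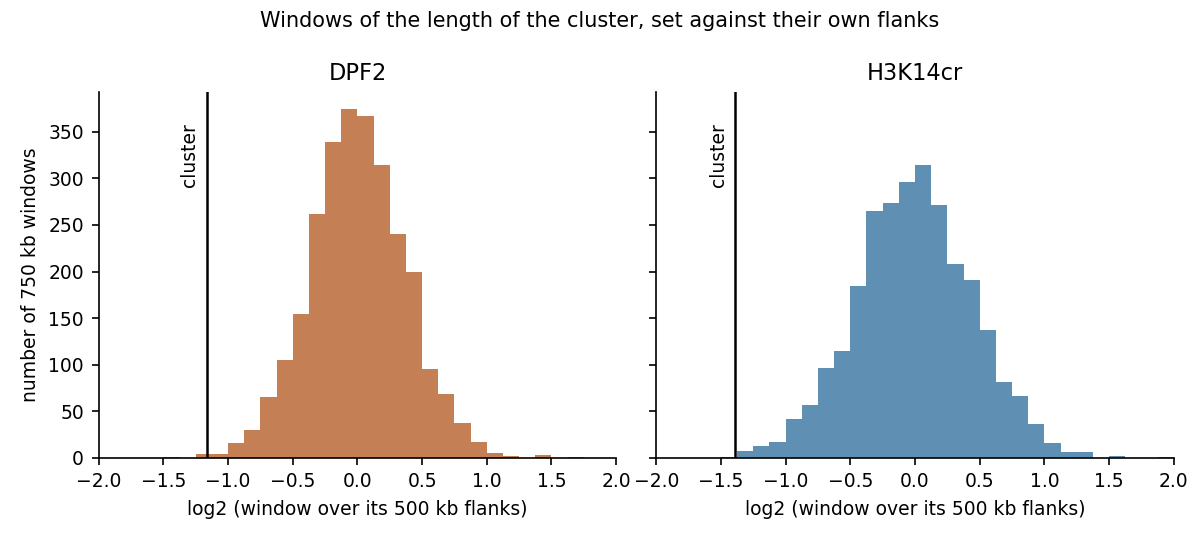
Number of 750 kb windows (y axis) by log2 of their level over that of their own 500 kb flanks (x axis), for DPF2 (left) and H3K14cr (right). The line marks the cluster, at ratios of 0.447 for DPF2 and 0.382 for H3K14cr, near the lower end of both distributions.

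The parts differed in level, with alpha and beta alike and gamma higher. Alpha had 0.230 and 0.254 CPM per kb for DPF2 and 0.204 and 0.221 CPM per kb for H3K14cr. Beta had 0.223 and 0.243 CPM per kb for DPF2 and 0.198 and 0.208 CPM per kb for H3K14cr. The values of alpha and beta overlapped in both antibodies, and beta was 0.961 times alpha for DPF2 (0.885 to 1.04) and 0.954 times for H3K14cr (0.884 to 1.03), intervals that include 1. Gamma, whose proteins include the isoforms needed for survival of some neurons in mice, had 0.478 and 0.454 CPM per kb for DPF2 and 0.434 and 0.441 CPM per kb for H3K14cr. All 4 libraries were higher in gamma than in alpha or beta. Gamma was 1.89 times alpha for DPF2 (1.76 to 2.02) and 2.05 times for H3K14cr (1.92 to 2.18), and 1.96 times beta for DPF2 (1.82 to 2.12) and 2.14 times for H3K14cr (2.0 to 2.30).

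**Figure D3:**
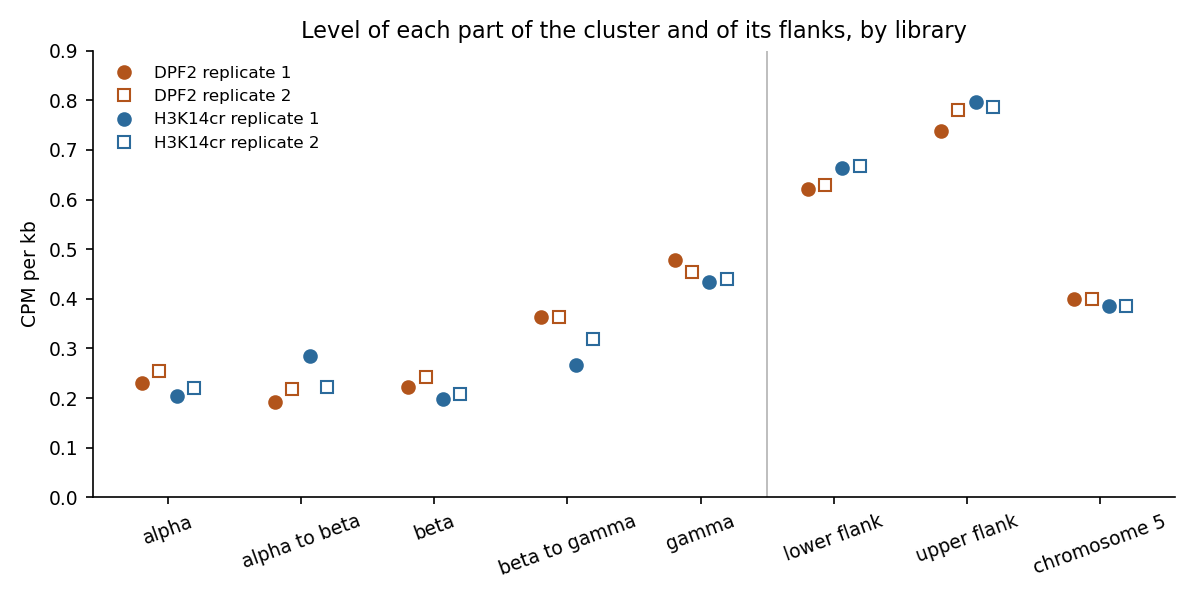
CPM per kb (y axis) of each part of the cluster, of the flanks and of chromosome 5 (x axis), with 1 point per library. Gamma lies between 0.434 and 0.478 CPM per kb in the 4 libraries, above alpha and beta and below both flanks.

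Relative to the flanks, alpha was at 0.352 times for DPF2 (0.333 to 0.373) and 0.294 times for H3K14cr (0.279 to 0.310). Beta was at 0.339 times for DPF2 (0.318 to 0.361) and 0.281 times for H3K14cr (0.265 to 0.297). Gamma was at 0.664 times for DPF2 (0.634 to 0.697) and 0.601 times for H3K14cr (0.576 to 0.627). Set over the 500 kb that adjoin each part itself, which take in the other parts, alpha was at 0.499 times for DPF2 and 0.434 times for H3K14cr, as means over the libraries. On the same measure beta was at 0.441 times for DPF2 and 0.393 times for H3K14cr. Among grid windows of the same length, likewise set over what adjoins them, 0.516% of 7949 were lower than alpha for DPF2 and 0.403% for H3K14cr, and 0.234% of 9384 were lower than beta for DPF2 and 0.266% for H3K14cr. Gamma did not stand out in this way. It was at 0.918 times for DPF2 and 0.861 times for H3K14cr, and 36.4% of 9847 windows were lower for DPF2 and 32.1% for H3K14cr. The 70 kb between beta and gamma had 0.363 and 0.364 CPM per kb for DPF2 and 0.267 and 0.319 CPM per kb for H3K14cr, or 1.54 times beta for DPF2 (1.39 to 1.71) and 1.46 times for H3K14cr (1.32 to 1.61). The 20 kb between alpha and beta held 30 and 58 reads of DPF2, against 62 and 77 of H3K14cr, and its level of 0.193 to 0.285 CPM per kb overlapped those of alpha and beta.

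Gamma was highest at its edges, whose limits were set after the profile was seen. These edges were not assigned to genes. Whether they reach into TAF7, listed before the gamma genes, or DIAPH1, listed after them, was not tested. The first 10 kb had 0.886 and 0.593 CPM per kb for DPF2 and 0.763 and 0.720 CPM per kb for H3K14cr, or 1.01 times the flanks for DPF2 (0.851 to 1.18) and 1.01 times for H3K14cr (0.877 to 1.16). The last 40 kb had 0.754 and 0.766 CPM per kb for DPF2 and 0.733 and 0.689 CPM per kb for H3K14cr, or 1.09 times the flanks for DPF2 (1.01 to 1.18) and 0.969 times for H3K14cr (0.902 to 1.04). The 150 kb between them, chr5:140710001-140860000, had 0.377 and 0.361 CPM per kb for DPF2 and 0.332 and 0.356 CPM per kb for H3K14cr. In every library this was below the chromosome 5 mean, 0.400 CPM per kb for DPF2 and 0.386 CPM per kb for H3K14cr. This inner stretch was 0.527 times the flanks for DPF2 (0.496 to 0.560) and 0.476 times for H3K14cr (0.451 to 0.502). It remained above alpha, at 1.5 times for DPF2 (1.38 to 1.62) and 1.62 times for H3K14cr (1.51 to 1.74). The highest 10 kb window of the cluster was its last, chr5:140890001-140900000, with 0.95 and 1.22 CPM per kb for DPF2 and 0.974 and 1.04 CPM per kb for H3K14cr.

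A tile was called enriched where both libraries of an antibody had at least 3 times its background, and a Poisson test gave a Benjamini-Hochberg adjusted p no higher than 0.001 in each. The background was the mean of the 20 kb around the tile or of the chromosome, whichever was larger. In the cluster 1 of 750 tiles was called for DPF2, against 0.215% of all tiles of the genome, and 1 tile was called for H3K14cr, against 0.416% of all tiles. The share of 0.133% in the cluster rests on a single tile, near those backgrounds, and is no result about the cluster by itself. The flanks held 6 called tiles for DPF2, 0.60%, and 11 for H3K14cr, 1.1%. In alpha and beta together 0 of 460 tiles were called for either antibody, which allows a share of up to 0.652%. Before both libraries were required, alpha and beta had 0 called tiles in each of the 4 libraries, and the cluster had 1 in each DPF2 library and 2 and 3 in the H3K14cr libraries. At the mean of chromosome 5, a call needed 15 and 19 reads of DPF2, against 17 and 21 reads of H3K14cr, or 4.82-fold and 3.57-fold for DPF2 and 4.05-fold and 3.13-fold for H3K14cr. Weaker sites were not detectable at this depth.

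The called tile was the same for both antibodies, chr5:140700001-140701000, the first tile of gamma as bounded here. In the GRCh38.p14 gene order SLC25A2 and TAF7 precede the first gamma gene, so whether this tile belongs to a gamma gene or to TAF7 cannot be told from the hg19 tiles. It had 2.44 and 2.33 CPM for DPF2 and 2.76 and 2.48 CPM for H3K14cr, from 19 and 31 reads of DPF2 and 30 and 43 reads of H3K14cr. Its enrichment was 4.0-fold and 4.73-fold for DPF2 and 6.12-fold and 4.97-fold for H3K14cr, and it was the highest tile of the cluster by mean CPM. Reads lay in 8 or 9 of its 100 bp bins in each library. The highest bin held 5 reads in each DPF2 library and 10 and 8 reads in the H3K14cr libraries, so the signal was spread over the tile and not carried by a single bin. The nearest other called tiles were 79 kb below the cluster, at chr5:140070001-140071000, and 98 kb above it, at chr5:140998001-140999000, both called for DPF2 and H3K14cr. From the upper edge of that lower tile to the called tile of gamma, neither antibody had a called tile over the whole of alpha and beta.

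The next tiles of gamma by mean CPM lay near its far end. The tile chr5:140892001-140893000 had 2.18 and 1.65 CPM for DPF2 and 1.47 and 1.27 CPM for H3K14cr. It was the only other tile of the cluster at 3-fold or more of the chromosome 5 mean in all 4 libraries, and it was called for both antibodies with the chromosome mean alone as background, but for neither against its own 20 kb. Its neighbour chr5:140891001-140892000 had 0.385 and 2.03 CPM for DPF2 and 1.56 and 1.55 CPM for H3K14cr. The DPF2 libraries of this tile, at 3 and 27 reads, lay further apart than the H3K14cr libraries, at 17 and 27 reads.

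In alpha, no tile averaged more than 1.03 CPM over the 4 libraries. The highest were chr5:140389001-140390000, with 0.899 and 1.05 CPM for DPF2 and 1.29 and 0.864 CPM for H3K14cr, chr5:140166001-140167000, with 0.770 and 0.601 CPM for DPF2 and 0.735 and 1.04 CPM for H3K14cr, and chr5:140308001-140309000, with 0.514 and 1.05 CPM for DPF2 and 1.01 and 0.576 CPM for H3K14cr. The antibodies overlapped in each of these tiles. In beta, the highest tiles were the first of the part, chr5:140420001-140421000, with 1.03 and 1.13 CPM for DPF2 and 0.827 and 0.748 CPM for H3K14cr, and chr5:140530001-140531000, with 1.16 and 0.976 CPM for DPF2 and 0.735 and 0.806 CPM for H3K14cr. The third, chr5:140603001-140604000, had 0.642 and 0.901 CPM for DPF2 and 1.1 and 0.979 CPM for H3K14cr. The antibodies did not overlap in these beta tiles, DPF2 being higher in 2 and H3K14cr in 1, but none of these differences passed the limma test described below, with adjusted p of 0.721 to 0.747.

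In the interval between alpha and beta, the highest tile was its last, chr5:140419001-140420000, with 0.642 and 0.601 CPM for DPF2 and 0.735 and 0.748 CPM for H3K14cr. The tile chr5:140401001-140402000 had 2 reads in each DPF2 library and 10 and 12 reads in the H3K14cr libraries, and chr5:140409001-140410000 had 0.385 and 0.375 CPM for DPF2 and 0.459 and 0.403 CPM for H3K14cr. In the interval between beta and gamma, the highest tile was its last, chr5:140699001-140700000, which adjoins the called tile and had 1.03 and 1.58 CPM for DPF2 and 1.19 and 1.21 CPM for H3K14cr. Its neighbour chr5:140698001-140699000 had 1.41 and 1.05 CPM for DPF2 and 0.459 and 0.288 CPM for H3K14cr, and chr5:140683001-140684000 had 1.28 and 0.601 CPM for DPF2 and 0.735 and 0.576 CPM for H3K14cr. Both DPF2 libraries were thus above 1 CPM in both tiles below the called one, and both H3K14cr libraries in the nearer of them alone; this pattern was chosen after the values were seen and was not tested.

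DPF2 and H3K14cr followed each other along the cluster. Over the 750 tiles, the Spearman correlation was 0.611 between the DPF2 libraries, 0.685 between the H3K14cr libraries and 0.581 to 0.683 between libraries of different antibodies. These are descriptions over tiles that share their depth and base composition. Over 10 kb windows, libraries of different antibodies had a chi-square per degree of freedom of 0.889 to 1.19 in the cluster and 1.4 to 1.70 in the flanks. Between libraries of the same antibody it was 1.1 in the cluster for DPF2 and 1.05 for H3K14cr. At this window size the shapes of the antibodies in the cluster differed by little more than counting error.

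**Figure D4:**
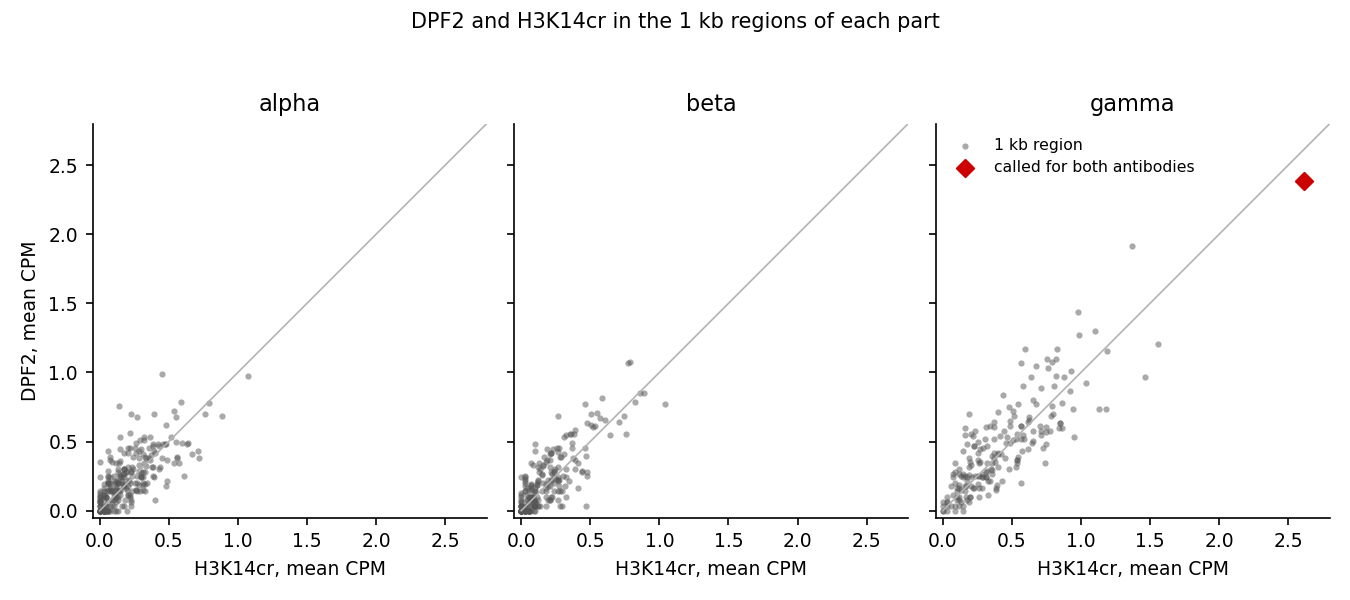
Mean CPM of the DPF2 libraries (y axis) against that of the H3K14cr libraries (x axis) for each 1 kb tile of alpha, beta and gamma, with the line of equal levels. The tiles scatter around that line, and the diamond marks the called tile chr5:140700001-140701000.

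The mean level of DPF2 over that of H3K14cr was slightly above 1 in the cluster and slightly below 1 in the flanks. In the cluster the ratio was 1.11 (1.07 to 1.15), and it lay between 1.07 and 1.16 in the 4 pairs of a DPF2 with an H3K14cr library. In the flanks it was 0.955 (0.935 to 0.976), and it lay between 0.932 and 0.969 in the pairs. The ratio was 1.15 in alpha (1.06 to 1.23), 1.15 in beta (1.06 to 1.25), 1.22 in the interval between beta and gamma (1.08 to 1.37) and 1.06 in gamma (0.995 to 1.12). In the 20 kb between alpha and beta it was 0.847 (0.641 to 1.11), with all 4 library pairs below 1, between 0.676 and 0.982. The intervals of gamma and of these 20 kb include 1. Scaled to the flanks, gamma was at 1.11 (1.04 to 1.17), which lies above 1. Without DPF2 replicate 2, alpha was at 1.07 (0.962 to 1.19) and beta at 1.09 (0.968 to 1.23), which include 1, and gamma at 1.09 (1.0 to 1.18), which lies just above it. An exact two-sided permutation test over the libraries gave p = 0.333 for the cluster and for each part, which is the smallest p that 2 libraries against 2 can give, so these differences have no test beyond counting error.

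**Figure D5:**
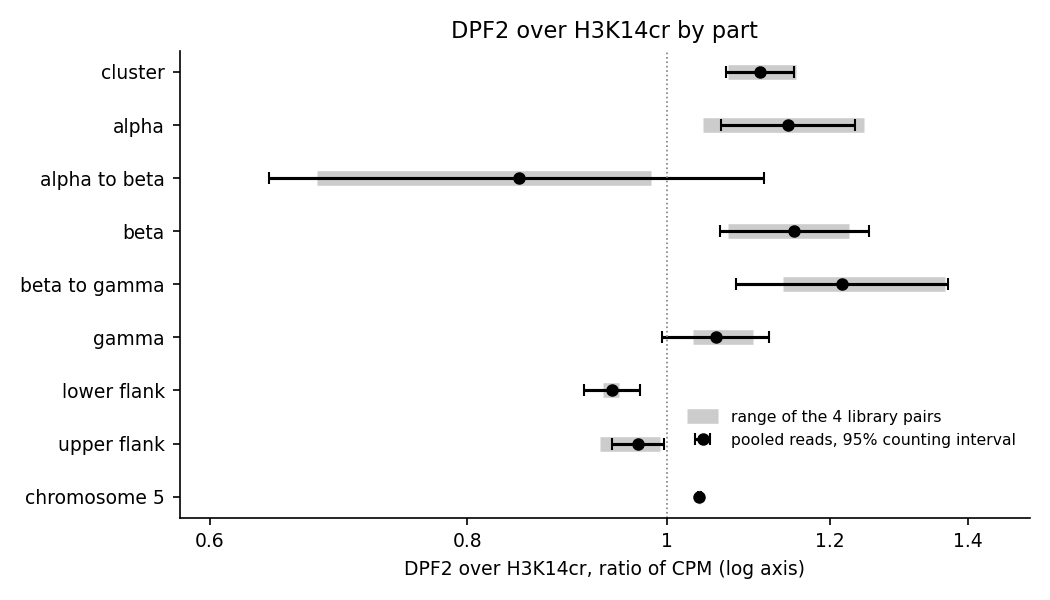
Ratio of CPM, DPF2 over H3K14cr (x axis, log scale), for the cluster, its parts, the flanks and chromosome 5 (y axis). Points are pooled reads with 95% counting intervals and grey bars the range of the 4 library pairs; the cluster lies at 1.11 and the flanks below 1.

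Windows elsewhere with a like level had like ratios. Among the 353 windows of 750 kb whose mean level over the 4 libraries was within 10% of that of the cluster, 0.294 CPM per kb, the median ratio of DPF2 over H3K14cr was 1.05, and 262 of them had a lower ratio than the cluster. Among the 216 windows within 10% of the level of the flanks, 0.711 CPM per kb, the median ratio was 0.925. The ratio of the cluster, 1.11 as the mean over libraries, thus lay within the range of windows of its level, whose 5th and 95th percentiles were 0.957 and 1.2.

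Single tiles were compared between the antibodies with limma on log2(CPM + 0.5), over the 255612 tiles of the genome that averaged 10 reads or more over the libraries. Differences on this scale understate those of low tiles. Of the 750 tiles of the cluster 32 passed that filter, with 23 in gamma, 6 in beta, 2 in alpha and 1 in the interval before gamma, so the test says little about alpha and beta. With p adjusted by the Benjamini-Hochberg method and a threshold of 0.05, limma called 0 of these 32 tiles, against 0.202% of all tested tiles higher in DPF2 and 1.19% higher in H3K14cr. At an unadjusted p below 0.05 there was 1 tile, and the quasi-likelihood test of edgeR, run on the reads, called 0 tiles as well, also with 1 at an unadjusted p below 0.05. The median log2 difference, DPF2 minus H3K14cr, was 0.07 over the 32 tiles and -0.11 over all tested tiles.

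Among the 32 tested tiles, the largest differences in each direction lay in gamma. The tile chr5:140719001-140720000 had 1.28 and 1.05 CPM for DPF2 and 0.551 and 0.633 CPM for H3K14cr, a log2 difference of 0.61 ± 0.30 (SE) with a limma adjusted p of 0.392. DPF2 was higher in both libraries there. The tile chr5:140730001-140731000 had 0.899 and 1.2 CPM for DPF2 and 0.551 and 0.806 CPM for H3K14cr, a log2 difference of 0.40. The tile chr5:140887001-140888000 had 1.16 and 1.73 CPM for DPF2 and 0.919 and 1.04 CPM for H3K14cr, a log2 difference of 0.38. The antibodies did not overlap in these tiles. In the other direction, chr5:140891001-140892000 had a log2 difference of -0.46 with libraries that overlapped. The tile chr5:140800001-140801000 had 0.642 and 0.826 CPM for DPF2 and 0.919 and 1.44 CPM for H3K14cr, a log2 difference of -0.43. The tile chr5:140706001-140707000 had 1.03 and 0.901 CPM for DPF2 and 1.84 and 1.09 CPM for H3K14cr, a log2 difference of -0.40. At the called tile chr5:140700001-140701000 the log2 difference was -0.11 ± 0.23 (SE), with a limma adjusted p of 0.896, and it became 0.02 with median-of-ratios factors. Of the tiles named above, 2 in the stretches between the parts held too few reads for the test and had larger ratios of pooled reads, with wide counting intervals. These were 3.35 (1.55 to 7.81) for DPF2 over H3K14cr at chr5:140698001-140699000 and 0.243 (0.061 to 0.717) at chr5:140401001-140402000.

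Windows of 10 kb gave more reads per test. Of the 74 windows of the cluster tested in this way, 1 was called by limma as higher in DPF2, against 0.621% of the 252477 windows tested. This window, chr5:140640001-140650000 between beta and gamma, had 0.360 and 0.315 CPM per kb for DPF2 and 0.138 and 0.219 CPM per kb for H3K14cr. The log2 difference was 0.78 ± 0.22 (SE), with a limma adjusted p of 0.0397. Both DPF2 libraries were above both H3K14cr libraries, at levels below the chromosome 5 mean. In the next window by p, chr5:140470001-140480000 in beta, DPF2 had 0.282 and 0.263 CPM per kb and H3K14cr 0.129 and 0.196 CPM per kb, with a limma adjusted p of 0.157.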

How the data were processed

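The authors' deposited signal gives, for bins of 100 bp that hold at least 1 read, a value scaled to 10000000 reads per library and rounded to 2 decimals. Bowtie2, without a version, and the builds mm9 and hg19 are named in the submitters' processing notes. For duplicates, reads with several matches and the tool that made the bins, the step is not given in the sources used here. Dividing by the value of 1 read recovered whole numbers of reads, to a tolerance of 0.005, except in 1 and 3 bins of the DPF2 libraries and 4 and 0 bins of the H3K14cr libraries. Bins were summed by midpoint into 1 kb tiles.

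Groups and replicate numbers came from the titles. The region, its parts, lists and tests were chosen with earlier results of these data known. Named tiles are the called tiles of each part or, with fewer than 3 called, the 3 highest by mean CPM, and the 3 tested tiles with the largest difference in each direction. Ratios pool the libraries of an antibody. The caller, the ratio intervals and the fits were checked on simulated data. Replicate numbers were not used as pairs in the main fit. The deviations of same-numbered libraries from their group means had a correlation of 0.00147 over 255612 tiles. Such deviations are mostly counting noise, so this cannot show whether the libraries were paired. limma was run with a trend and a pseudocount of 0.5 CPM. Its p-values are read as measures of technical spread, as separate cultures are not stated for the libraries of an antibody. Windows used for ranks had at least 90% covered tiles. Software was limma 3.58.1 and edgeR 4.0.16 in R 4.3.3, and scipy 1.17.1, numpy 2.4.6, pandas 2.3.3 and matplotlib 3.10.9 in Python 3.11.15. Other flanks, call settings, scalings, pseudocounts, filters and tests, a replicate block and the removal of each library were tried as alternatives.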

Additional observations from a re-analysis of the deposited data

How the results depend on the processing

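All 72 recomputed levels of the cluster and of alpha, beta and gamma over the flanks stayed below 1. With the lower flank alone the cluster, alpha, beta and gamma were at 0.496, 0.391, 0.376 and 0.738 times for DPF2 and at 0.420, 0.321, 0.307 and 0.657 times for H3K14cr. With the upper flank alone they were at 0.406, 0.320, 0.308 and 0.604 times for DPF2 and at 0.354, 0.271, 0.258 and 0.554 times for H3K14cr. By the median tile, an alternative added after seeing the data, they were at 0.385, 0.308, 0.308 and 0.615 times for DPF2 and at 0.333, 0.278, 0.222 and 0.556 times for H3K14cr. With flanks of 250 kb the cluster, alpha and gamma were at 0.420, 0.332 and 0.626 times for DPF2. Without the tiles called for either antibody the cluster was at 0.400 times for H3K14cr. Leaving out a library gave 0.643 to 0.702 for gamma in DPF2 and 0.372 to 0.392 for the cluster in H3K14cr.

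Called tiles in the cluster numbered 0 for DPF2 and 0 for H3K14cr at a fold of at least 5, and 2 for DPF2 and 3 for H3K14cr with the chromosome mean alone as background. With the libraries summed before calling, H3K14cr had 3. With replicate 1 or 2 left out, H3K14cr had 2 to 3 and DPF2 had 1. All tiles gained under these alternatives lay in gamma. The ratio of DPF2 over H3K14cr in the cluster was 1.07 with median-of-ratios factors and 1.16 scaled to the flanks; in the parts, the counting intervals of alpha and beta took in 1 without DPF2 replicate 2, and that of gamma left 1 without it or scaled to the flanks.

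Between the antibodies, 10 kb tiles gave 1 call higher in DPF2. Leaving out a library gave 0 to 1 calls higher in H3K14cr. The call came without DPF2 replicate 2, at chr5:140891001-140892000, with a log2 difference of -1.22 and a limma adjusted p of 0.00653, and the difference was 0.30 without DPF2 replicate 1. Here a lone library is assumed to vary like the other group. The replicate block gave 0 calls in the cluster. With median-of-ratios factors the median log2 difference was 0.00 over all tested tiles and 0.18 over the 32 tiles of the cluster, against -0.11 and 0.07 as reported. The cause of these shifts was not tested. Depth limits calls in alpha and beta, where most tiles held too few reads for the test between antibodies.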
